A study of Homo sapiens with 12 samples.

Results

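A set of 10 genes that drive or carry out ribosomal RNA synthesis was followed in RCC4 cells after knockdown of MESH1, whose gene symbol is HDDC3. They were chosen by name, as MYC, 2 subunits of RNA polymerase I (POLR1A and POLR1B), its initiation factors UBTF and RRN3, and the nucleolar proteins FBL, NOP56, NCL, NPM1 and BOP1. All 10 were found among the 23710 gene symbols of the count files. RCC4 is an established line of clear cell renal carcinoma that lacks a working VHL protein. Cells received 40 pmol of siRNA for 72 hours. In experiment 1, 3 libraries of siMESH1-CDS were compared with 3 of the non-targeting control siNT, and in experiment 2, 3 libraries of siMESH1-7002 were compared with 3 further siNT libraries. All groups share the same line, and each siRNA was compared only with the siNT of its own experiment. The titles call the replicates biological but do not say whether they came from separate cultures, so p-values measure only the spread between these samples.

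MESH1 is a hydrolase that removes a phosphate from NADPH, and its bacterial relatives break down ppGpp, the alarmone of the stringent response. In bacteria that response shuts down the synthesis of ribosomal RNA. In human cells the 47S precursor of ribosomal RNA is made in the nucleolus by RNA polymerase I. UBTF opens the ribosomal DNA, RRN3 makes the polymerase competent to start, and the precursor is then modified by small nucleolar RNPs and assembled with proteins into ribosomal subunits. MYC is the transcription factor best known for raising the expression of genes at each of these steps, often through the E-box CACGTG.

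The siRNAs are shown first because each comparison rests on 1 of them. Their guide strands, with the seed (bases 2 to 8) in capitals, share no seed. The treatment notes of experiment 1 also name another siRNA, against the 3′UTR, and the libraries used here are those titled siMESH1-CDS.
siMESH1-CDS guide: cACAAUGUcagugauuccc
siMESH1-7002 guide: uAGUUAGCaggagaccuucag
The siMESH1-CDS target lies in the coding region of HDDC3, at bases 170 to 188 of transcript ENST00000394272.7, and the siMESH1-7002 target lies in its 3′UTR, at bases 715 to 735 (GENCODE 29). A perfect match to the siMESH1-CDS seed, the 7-letter site ACATTGT, was found in the 3′UTRs of POLR1A, RRN3 and NCL, each once, and in 16.4% of 12861 3′UTRs. The siMESH1-7002 site, GCTAACT, was found once in NCL among the 10 genes, and in 6.27% of 3′UTRs. In the 4 windows below, read 5′ to 3′ on the mRNA from GENCODE 29, the capitals mark the match.
POLR1A, siMESH1-CDS site: gatgcgggttaACATTGTttattttacaaa
RRN3, siMESH1-CDS site: ttattttggctACATTGTtcaccttctgct
NCL, siMESH1-CDS site: cgggactatcaACATTGTgatgaatttact
NCL, siMESH1-7002 site: gaagagcagtgGCTAACTcctgtaatccca
Of these genes, POLR1A was lower with siMESH1-CDS, while RRN3 and NCL were not called, and NCL was lower with siMESH1-7002. With an offset for GC content, described below, POLR1A and RRN3 were both called lower with siMESH1-CDS, in each of its 4 forms. NCL was not called with siMESH1-CDS under the main form, and its direction varied between the forms. A match is a description of the letters and not a shown site of action.

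The libraries held between 34063155 and 49134129 reads in genes in experiment 1 and between 24787804 and 31651125 in experiment 2. HDDC3 itself had 292 to 438 reads in the siNT libraries of experiment 1 and 0 to 11 with siMESH1-CDS, and 326 to 442 against 35 to 52 in experiment 2. Markers were read in CPM without TMM factors. All 6 renal carcinoma markers were detected in all 12 libraries and were lower on average with siMESH1-CDS than in siNT of experiment 1: PAX8 at 54.4 against 184.5, CA9 at 3.56 against 33.5, NDUFA4L2 at 0.593 against 30.3, KRT8 at 10.9 against 99.3, KRT18 at 2.64 against 84.7 and VIM at 3180 against 3849. CD3E and PECAM1 had 0 reads, PTPRC, VWF, CDH5, DCN and LUM reached at most 0.158 CPM, and PDGFRB reached 0.855 CPM. CD68, listed with the leukocytes but known from lysosomes of many cells, averaged 59.9 CPM in siNT and 3.37 CPM with siMESH1-CDS. The part of these shifts in the results below was not tested. The 3 siMESH1-CDS libraries stand apart from the rest: the median log2 difference from siNT of genes in the lowest of 10 classes of transcript GC content was between 0.76 and 1.41, and that in the highest class was between -4.37 and -2.49. With siMESH1-7002 the same medians were 0.12 to 0.15 and -0.10 to -0.08. The siMESH1-CDS replicates were also less alike. The chi-square per degree of freedom between the counts of paired replicates was 68.9 to 290.6 among them. It was 3.82 to 15.8 in siNT of experiment 1, 2.66 to 13.5 in siNT of experiment 2 and 2.29 to 4.02 with siMESH1-7002. The coefficient of biological variation, fitted over both groups of an experiment, was 0.299 in experiment 1 and 0.0490 in experiment 2. Therefore each change of a named gene with siMESH1-CDS is given with an offset for GC content as well, and the part of GC content in each change was not tested beyond that.

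Levels are given as CPM (reads of a gene scaled to library size, with TMM factors inside each experiment), tests are edgeR's quasi-likelihood test, and a gene is called at an adjusted p under 0.05 over all genes tested. Of all genes tested with siMESH1-CDS, 36.9% were called higher and 37.2% lower, and 6 of the 10 genes were lower and 2 higher. Of all genes tested with siMESH1-7002, 26.6% were called higher and 26.7% lower, and 8 of the 10 were lower and 0 higher. The same groups of 3 libraries did not overlap for 9 of the 10 genes in experiment 1 and 8 of 10 in experiment 2, against 82.7% and 59.5% of all genes. The median log2 fold change of the 10 was -0.76 with siMESH1-CDS and -0.20 with siMESH1-7002, beside -0.05 and 0.01 over all genes. With the GC offset, 4 of the 10 were lower and 2 higher with siMESH1-CDS, against 33.4% and 33.2% of all genes, and the median of the 10 was -0.17, beside -0.03 over all genes. Over 4 ways to centre that offset the median of the 10 ranged from -0.66 to 0.30 and that of all genes from -0.51 to 0.44. With siMESH1-7002, 8 were lower and 0 higher under 2 of these centrings. Of all genes, 29.9% to 30.5% were then lower and 31.0% to 31.7% higher. The others gave 5 lower and 2 higher, beside 23.2% to 23.9% and 39.7% to 41.2% of all genes. Without the GC offset, MYC, POLR1A, UBTF, FBL, NOP56 and BOP1 were called lower with both siRNAs, and POLR1B was called in opposite directions. Of the 128 other tested genes in the lists below, 37 were then lower with both and 16 were called in opposite directions. A share over all genes is not given. With the offset, POLR1A, NOP56 and BOP1 were called lower with both. MYC was then called higher with siMESH1-CDS, and UBTF, FBL and POLR1B were not called with it. When all 12 libraries entered 1 model, MYC, POLR1B, NCL and BOP1 stayed called with siMESH1-7002, and POLR1A, UBTF, FBL and NOP56 did not (adjusted p between 0.536 and 0.928). Most genes lost their call there: 2582 of all genes were called with siMESH1-7002, against 7235 in experiment 2 alone. The difference between the siRNAs, as siMESH1-7002 minus siMESH1-CDS, was tested in that model with 1 scaling over the 12 libraries. That scaling put the median of all genes, and each of the 10 to within 0.01, 0.15 above a scaling inside each experiment, so a printed difference is not that of the 2 printed changes.

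**Figure D1:**
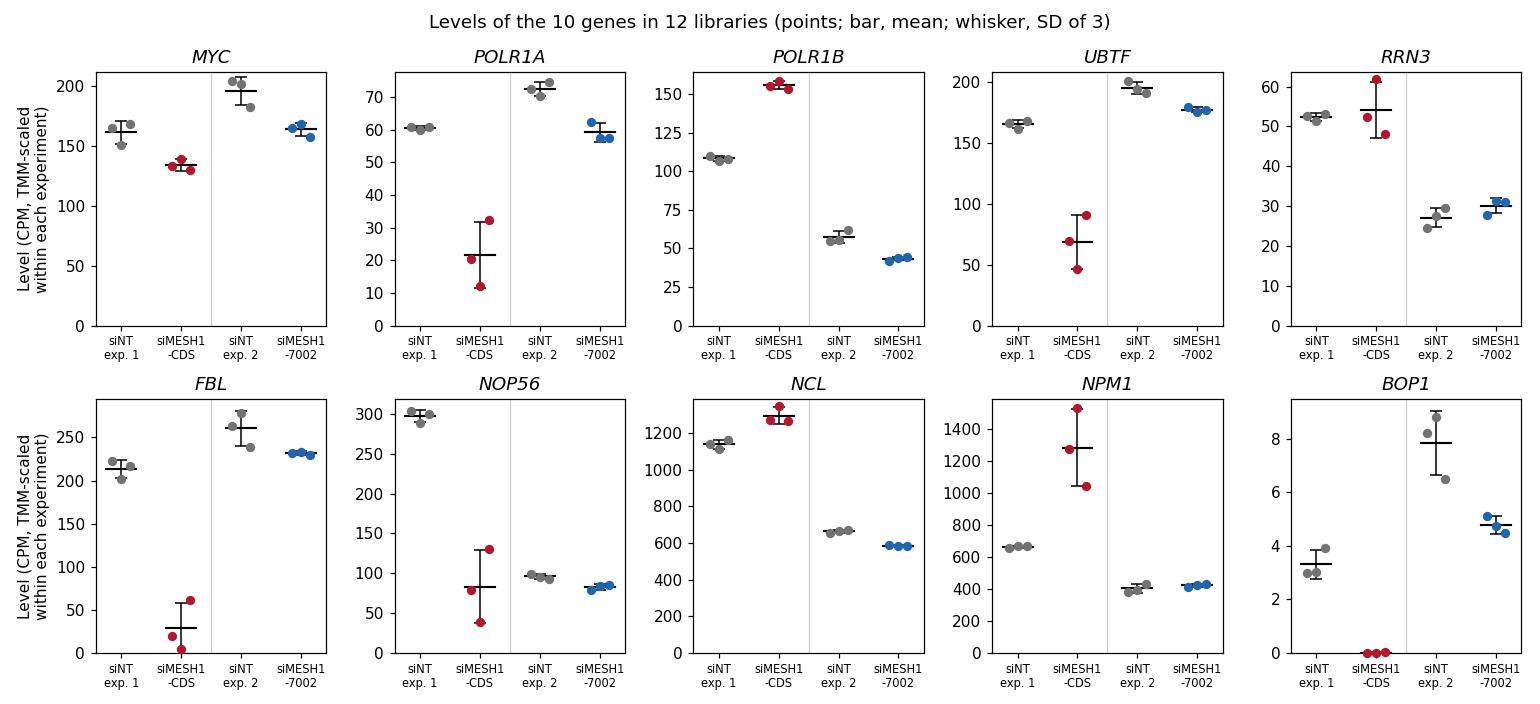
Level of each gene (CPM, y axis from 0) in the 3 libraries of each group, with the mean (bar) and SD (whisker); red, siMESH1-CDS; blue, siMESH1-7002; grey, siNT. FBL, NOP56 and POLR1A fell far with siMESH1-CDS and little with siMESH1-7002, while NPM1 and POLR1B were higher with siMESH1-CDS.

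MYC, which lies on chromosome 8 at 127735434 to 127741434 (GRCh38, plus strand), fell by a similar amount with both siRNAs when GC content was not offset. Its level was 165, 150 and 168 CPM in the siNT libraries of experiment 1 and 133, 139 and 129 CPM with siMESH1-CDS. It was 204, 201 and 182 CPM in the siNT libraries of experiment 2 and 165, 168 and 157 CPM with siMESH1-7002. All siMESH1 libraries were below all siNT libraries of their experiment. The log2 fold change was -0.27 ± 0.08 (SE, adjusted p = 0.0282) with siMESH1-CDS and -0.26 ± 0.05 (adjusted p = 0.000421) with siMESH1-7002, with a difference of 0.16 ± 0.10 on the 12-library scaling that was not called (adjusted p = 0.185). With the scaling inside each experiment it was 0.0068 ± 0.10 (adjusted p = 0.959). The call with siMESH1-CDS was lost without siMESH1-CDS replicate 1, without siNT replicate 1 or without siNT replicate 3 (adjusted p up to 0.114). Under the GC offset the change with siMESH1-CDS turned positive, at 0.93 (adjusted p = 0.0302), and was positive under each of the 4 centrings (0.37 to 1.44). With siMESH1-7002 it stayed negative under all 4 (-0.21 to -0.13). The difference between the siRNAs was then -1.20 (adjusted p = 0.00902). The other centrings gave -1.31, -0.41 and -1.45 (adjusted p = 0.00660, 0.0980 and 0.00697).

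POLR1A, on chromosome 2 at 86020216 to 86106155 (minus strand), encodes the largest subunit of the polymerase. It was 60.9, 59.8 and 60.8 CPM in siNT and 20.5, 12.04 and 32.3 CPM with siMESH1-CDS. The level in experiment 2 was 72.5, 70.3 and 74.4 CPM in siNT and 62.4, 57.5 and 57.5 CPM with siMESH1-7002. Both sets of groups were separate, and siMESH1-CDS replicate 2 was the lowest library of all. Log2 fold changes were -1.49 ± 0.35 (SE, adjusted p = 0.00965) and -0.29 ± 0.05 (adjusted p = 0.000216), and they differed by 1.34 ± 0.37 (adjusted p = 0.00838). After the GC offset the change with siMESH1-CDS was -1.03 (adjusted p = 0.00334), and it was negative under all 4 centrings (-1.48 to -0.58). With siMESH1-7002 the centrings gave -0.26 to -0.18, each called.

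POLR1B, on chromosome 2 at 112541915 to 112577150 (plus strand), encodes the other large subunit, and it moved the other way from POLR1A in experiment 1. It rose from 110, 107 and 108 CPM in siNT to 155, 158 and 153 CPM with siMESH1-CDS. In experiment 2 it fell from 54.9, 55.4 and 61.8 CPM to 42.2, 43.8 and 44.4 CPM. Neither pair of groups overlapped. The log2 fold changes were 0.52 ± 0.07 (SE, adjusted p = 0.00137) and -0.40 ± 0.06 (adjusted p = 2.56e-05), and the difference was -0.77 ± 0.10 on the 12-library scaling (adjusted p = 6.49e-05) and -0.93 ± 0.09 inside each experiment (adjusted p = 1.91e-05). Once GC content was offset, the rise with siMESH1-CDS was lost (-0.02, adjusted p = 0.765), and its direction depended on the centring (-0.50 to 0.45), while the fall with siMESH1-7002 held under all 4 (-0.43 to -0.35).

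UBTF, on chromosome 17 at 44205033 to 44221626 (minus strand), encodes the factor that binds ribosomal DNA and recruits the initiation complex. It was 166, 161 and 168 CPM in siNT and 69.7, 46.3 and 90.6 CPM with siMESH1-CDS. In experiment 2 the levels were 200.4, 194 and 190.4 CPM in siNT and 179, 175 and 177 CPM with siMESH1-7002. All siMESH1 libraries were below their siNT libraries. Log2 fold changes were -1.26 ± 0.24 (SE, adjusted p = 0.00437) and -0.14 ± 0.04 (adjusted p = 0.0123), with a difference of 1.27 ± 0.26 (adjusted p = 0.00153). With the GC offset the change with siMESH1-CDS was 0.10 (adjusted p = 0.370) and ranged from -0.41 to 0.58 over the centrings. The call with siMESH1-7002 was lost without siMESH1-7002 replicate 2 (adjusted p = 0.0658) and under 2 of the 4 centrings (-0.013 and -0.0023, adjusted p = 0.720 and 0.955), while the others gave -0.082 and -0.076.

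RRN3, on chromosome 16 at 15060022 to 15094317 (minus strand), encodes the factor that prepares the polymerase to initiate, and it was not called with either siRNA. It was 52.7, 51.3 and 53.2 CPM in siNT and 52.2, 61.8 and 48.1 CPM with siMESH1-CDS, so the groups overlapped. The level in experiment 2 was 24.5, 27.5 and 29.4 CPM in siNT and 27.9, 31.2 and 31.1 CPM with siMESH1-7002, which overlapped as well. The log2 fold changes were 0.04 ± 0.12 (SE, adjusted p = 0.750) and 0.15 ± 0.07 (adjusted p = 0.102). The rise with siMESH1-7002 was called without siNT replicate 3 of experiment 2 (0.22, adjusted p = 0.00471) and under 2 of the 4 centrings (0.15 and 0.16, adjusted p = 0.0206 and 0.0118). Under the GC offset it was lower with siMESH1-CDS, at -0.83 (adjusted p = 0.000117), and it was below 0 under all 4 centrings (-1.31 to -0.36). RRN3 has 4 named pseudogenes, and 3 of them are counted as rows of their own, so reads may be shared between near-identical copies.

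FBL, on chromosome 19 at 39834458 to 39846414 (minus strand), encodes fibrillarin, the methyltransferase of box C/D small nucleolar RNPs. It had 222, 202 and 217 CPM in siNT and 19.99, 4.45 and 61.7 CPM with siMESH1-CDS, with the siMESH1-CDS replicates far apart. In experiment 2 it had 264, 278 and 239 CPM in siNT and 232, 233 and 229 CPM with siMESH1-7002. No siMESH1 library reached the lowest siNT library of its experiment. Log2 fold changes were -2.90 ± 0.87 (SE, adjusted p = 0.0241) and -0.17 ± 0.05 (adjusted p = 0.0111), with a difference of 2.87 ± 0.90 (adjusted p = 0.0156). The call with siMESH1-CDS was lost without siMESH1-CDS replicate 1 or without any 1 of the siNT libraries (adjusted p up to 0.0825), and that with siMESH1-7002 without siNT replicate 2 (adjusted p = 0.0915). Under 2 of the 4 centrings the change with siMESH1-7002 was -0.032 and -0.021 and not called (adjusted p = 0.416 and 0.605). After the GC offset the change with siMESH1-CDS was -1.11 and not called (adjusted p = 0.0567), and it was negative under all 4 centrings (-1.51 to -0.69).

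NOP56, on chromosome 20 at 2652145 to 2658393 (plus strand), encodes a core protein of the same RNPs. It had 304, 289 and 299 CPM in siNT and 79.7, 39.2 and 131 CPM with siMESH1-CDS. The level in experiment 2 was 98.9, 96.0 and 93.4 CPM in siNT and 79.2, 84.1 and 85.7 CPM with siMESH1-7002. The groups were separate in both experiments. The log2 fold changes were -1.84 ± 0.42 (SE, adjusted p = 0.00851) and -0.21 ± 0.05 (adjusted p = 0.00214), with a difference of 1.77 ± 0.45 (adjusted p = 0.00505). Once GC content was offset, the fall with siMESH1-CDS was -0.29 (adjusted p = 0.00866), the centrings gave -0.76 to 0.18, and the difference between the siRNAs was 0.06 (adjusted p = 0.497). The call with siMESH1-7002 was lost under 2 of them (-0.079 and -0.069, adjusted p = 0.0682 and 0.111).

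NCL, on chromosome 2 at 231453531 to 231483641 (minus strand), encodes nucleolin, an abundant RNA-binding protein of the nucleolus. It had 1139, 1113 and 1164 CPM in siNT and 1272, 1347 and 1263 CPM with siMESH1-CDS. In experiment 2 it had 656, 668 and 670.2 CPM in siNT and 588, 583 and 584 CPM with siMESH1-7002. The siMESH1-CDS libraries lay above and the siMESH1-7002 libraries below their siNT libraries. The log2 fold change was 0.18 ± 0.08 (SE, adjusted p = 0.0839) with siMESH1-CDS, which was not called, and -0.18 ± 0.04 (adjusted p = 0.000663) with siMESH1-7002. On the 12-library scaling the difference of -0.22 ± 0.08 was called (adjusted p = 0.0370), but not in 9 of the 12 fits that each left out 1 library, and inside each experiment it was -0.37 ± 0.08 (adjusted p = 0.00265). With the GC offset the change with siMESH1-CDS was -0.06 (adjusted p = 0.401), and the centrings gave -0.55 to 0.42. With siMESH1-7002 they gave -0.19 to -0.11, each called.

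NPM1, on chromosome 5 at 171387116 to 171411137 (plus strand), encodes nucleophosmin, a chaperone of the granular nucleolus. It rose from 657, 669 and 667 CPM in siNT to 1276, 1531 and 1048 CPM with siMESH1-CDS. The level in experiment 2 was 384, 394 and 435 CPM in siNT and 415, 426 and 431 CPM with siMESH1-7002, and these groups overlapped. Log2 fold changes were 0.95 ± 0.15 (SE, adjusted p = 0.00220) and 0.07 ± 0.05 (adjusted p = 0.232), with a difference of -0.73 ± 0.16 (adjusted p = 0.00268). Without siNT replicate 3 of experiment 2, the change with siMESH1-7002 was called at 0.13 (adjusted p = 0.00156), and it was called under 2 of the 4 centrings (0.094 and 0.10, adjusted p = 0.00924 and 0.00489). Under the GC offset the rise with siMESH1-CDS was 0.22 (adjusted p = 0.0262), and the centrings gave -0.28 to 0.70. The reference names 49 NPM1 pseudogenes, so its count is uncertain where reads fit several copies.

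BOP1, on chromosome 8 at 144262102 to 144291370 (minus strand), encodes the scaffold of the PES1-BOP1-WDR12 complex, which acts in maturation of the large ribosomal subunit. Its level per kilobase of transcript was the lowest of the 10. It had 160, 136 and 183 reads in siNT and 0, 0 and 2 reads with siMESH1-CDS. The pooled siNT level was thus 173 times that with siMESH1-CDS, with an exact 95% interval from 47.7 to 1434 that covers counting error only, and the change was called (adjusted p = 0.000444). In experiment 2 it fell from 8.20, 8.80 and 6.49 CPM in siNT to 5.13, 4.73 and 4.49 CPM with siMESH1-7002. No groups overlapped. The log2 fold change with siMESH1-7002 was -0.71 ± 0.12 (SE, adjusted p = 0.000106), the largest fall of the 10 with that siRNA. BOP1 also has the highest GC content of the 10, at 65.2%, and with the GC offset the change with siMESH1-CDS was called as well (adjusted p = 0.00183), and it was negative under all 4 centrings, as was that with siMESH1-7002 (-0.63 to -0.55).

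In 9 of the 10 genes the siMESH1-CDS libraries took 1 of 2 orders, and BOP1, with 0, 0 and 2 reads, took neither. POLR1A, UBTF, FBL and NOP56 were lowest in replicate 2 and highest in replicate 3, whereas MYC, POLR1B, RRN3, NCL and NPM1 were highest in replicate 2 and lowest in replicate 3. The trend with GC content was likewise steepest in replicate 2 and flattest in replicate 3. Over the 10 genes the change with siMESH1-CDS fell with transcript GC content (Pearson r = -0.89, Spearman rho = -0.89), and over the 138 genes of the lists below it did so too (r = -0.82, rho = -0.84). With siMESH1-7002 the values were r = -0.70 and rho = -0.44 over the 10 and r = -0.26 and rho = -0.29 over the 138. These are descriptions across genes that share libraries, and genes are not independent replicates. MYC had a smaller fall than the median of its GC class (-0.27 against -0.80), and POLR1A a larger one (-1.49 against -0.80).

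**Figure D2:**
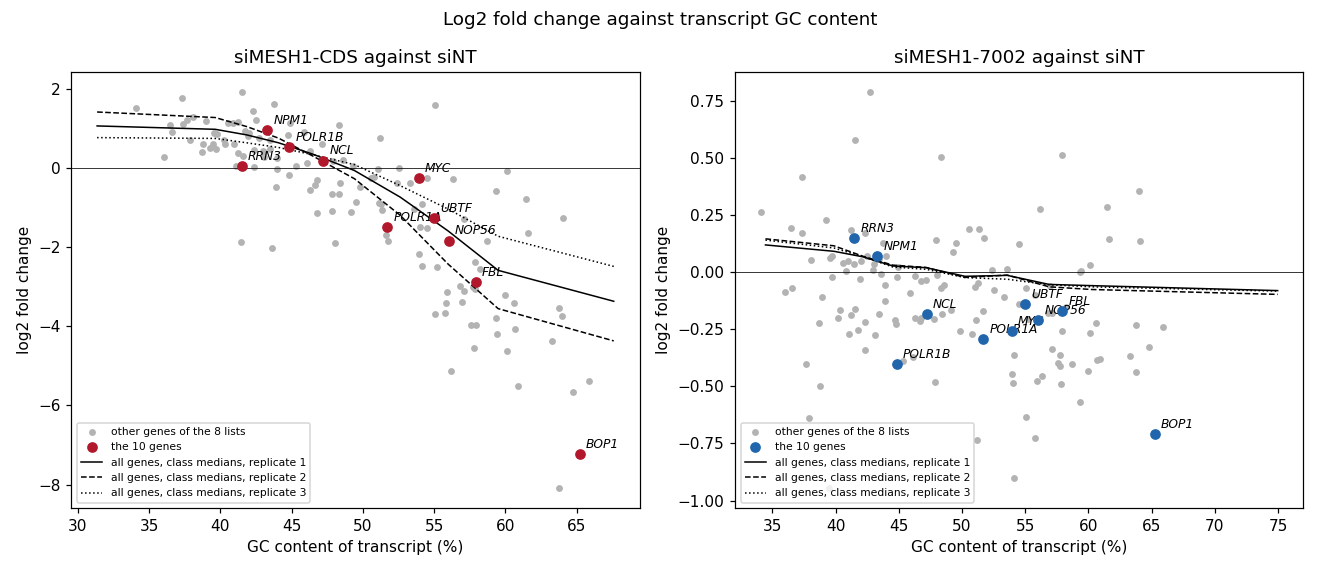
Log2 fold change (y) against transcript GC content (%, x) for the 10 genes (coloured), the other genes of the 8 lists (grey) and the class medians of all genes in each siMESH1 library (lines). With siMESH1-CDS the changes of the 10 genes run from the highest, NPM1 at 43.3% GC, to the lowest, BOP1 at 65.2%. RRN3 has the lowest GC content of the 10, at 41.5%, and a change of 0.04. With siMESH1-7002 the lines are close to flat. The fitted value of BOP1 with siMESH1-CDS rests on 2 reads.

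**Figure D3:**
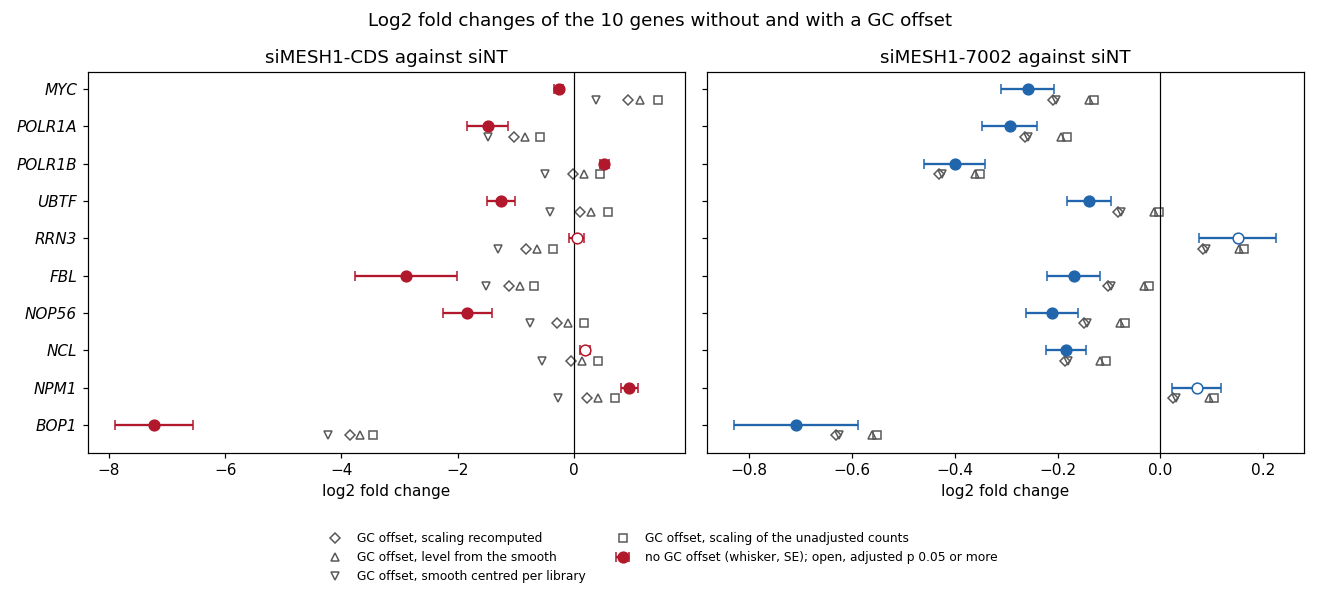
Log2 fold change of each gene with its SE (filled, called; open, not called), and the same with a GC offset under 4 centrings (grey). With siMESH1-CDS the GC offset puts MYC above 0 and RRN3 below 0 under all 4, and POLR1A, FBL and BOP1 stay below 0 under all 4. With siMESH1-7002 all 10 keep their direction.

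Lanes 4 and 6 each held a siNT and a siMESH1-CDS library, so differences could be read within these lanes, with no test. MYC was lower by log2 differences of -0.35 and -0.34, POLR1A by -0.91 and -1.57, UBTF by -0.87 and -1.27, FBL by -1.85 and -3.43 and NOP56 by -1.21 and -1.91. POLR1B was higher by 0.48 and 0.52 and NPM1 by 0.67 and 0.93. NCL was higher by 0.15 and 0.13, and BOP1 was lower in both lanes. RRN3, which was not called, was -0.13 and -0.03 within lanes against a pooled change of 0.04, and the other genes had the direction of the pooled change.

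The siNT libraries of the experiments also differed. On a scaling over 12 libraries, NOP56 was 3.44 times, RRN3 2.14 times, POLR1B 2.10 times, NCL 1.90 times and NPM1 1.83 times as high in siNT of experiment 1 as in siNT of experiment 2, and BOP1 was 2.12 times as high in experiment 2. MYC, POLR1A, UBTF and FBL differed by at most 1.10 times. The experiment and its processing cannot be told apart here. Per kilobase of transcript, siNT of experiment 1 gave the order NPM1 (378 CPM per kb), NCL (282), FBL (184), NOP56 (124), MYC (68.1), UBTF (33.0), POLR1B (21.4), RRN3 (13.9), POLR1A (4.75) and BOP1 (1.44). In siNT of experiment 2, NPM1 (230 CPM per kb ± 15.2 SD) and FBL (224 ± 17.2) were level within their spread, as were NOP56 (40.0 ± 1.15) and UBTF (39.0 ± 1.01).

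The other genes of the pathway were described in 8 lists of 141 genes, of which 138 were tested in both experiments. Without the 10, 58 of 128 were lower (45.3%) and 42 higher (32.8%) with siMESH1-CDS, beside 37.2% and 36.9% of all genes. With siMESH1-7002, 59 were lower (46.1%) and 17 higher (13.3%), beside 26.7% and 26.6% of all genes. The counts of each list below stand beside these same shares. Those with siMESH1-CDS under the GC offset stand beside 33.4% lower and 33.2% higher. The median log2 fold changes of the 128 were -0.27 and -0.11, beside -0.05 and 0.01 over all genes. With the GC offset 70 were lower and 27 higher with siMESH1-CDS, with a median of -0.39 beside -0.03 over all genes. Over the centrings the lower count went from 33 to 87 (25.8% to 68.0%), beside 19.5% to 45.3% of all genes. With siMESH1-7002 the centrings gave 48 to 64 lower (37.5% to 50%), beside 23.2% to 30.5% of all genes.

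Among the small nucleolar RNP proteins 9 of 12 were lower and 0 higher with siMESH1-7002. Under 2 of the 4 centrings 5 and 4 were lower, beside 23.9% and 23.2% of all genes. With siMESH1-CDS 8 were lower and 1 higher, and with the GC offset 7 and 1. NOLC1, a chaperone of the RNPs, had log2 fold changes of -1.09 and -0.20 in experiments 1 and 2 (adjusted p = 0.000395 and 0.000931). TCOF1, the treacle protein that links polymerase I with the RNPs, fell by 3.80 and 0.57 (adjusted p = 0.00277 and 1.24e-07). With the GC offset the changes with siMESH1-CDS were -1.26 for NOLC1 and -1.45 for TCOF1.

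In the large subunit assembly list, 18 of 32 genes were lower with each siRNA, and 10 and 2 were higher. With the GC offset 17 were lower and 5 higher with siMESH1-CDS. PES1, a partner of BOP1, fell by 2.56 with siMESH1-CDS (adjusted p = 0.00480, and -0.42 with the GC offset) and by 0.15 with siMESH1-7002 (adjusted p = 0.00843). MRTO4 fell by 2.48 and 0.90, and was -1.48 with siMESH1-CDS after the offset. WDR12, the other partner, was chosen after its values were seen: it was 0.71 with siMESH1-CDS and -0.20 with siMESH1-7002, and -0.24 with siMESH1-CDS under the GC offset. RSL1D1 was 0.54 and 0.02 (adjusted p = 0.00323 and 0.716), and the offset left 0.0071 with siMESH1-CDS (adjusted p = 0.908).

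The small subunit processome had 13 of 36 genes lower and 15 higher with siMESH1-CDS, or 36.1% and 41.7%, near the shares of all genes (37.2% and 36.9%). That count turned with the GC offset to 24 lower and 8 higher, beside 33.4% and 33.2% of all genes. The other centrings gave 11 to 26 lower, beside 19.5% to 45.3% of all genes. With siMESH1-7002, 16 were lower and 4 higher. HEATR1, a component that also acts in polymerase I transcription, rose by 1.92 and 0.58 (adjusted p = 0.000239 and 2.91e-06), and was 1.05 with siMESH1-CDS after the offset. WDR3 was 0.61 with siMESH1-CDS (adjusted p = 0.00137) but -0.36 with the offset (adjusted p = 0.0234), and it fell by 0.95 with siMESH1-7002. TSR1 was -0.02 and -0.06 (adjusted p = 0.847 and 0.288), and with the offset it was 0.38 with siMESH1-CDS (adjusted p = 0.0163).

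Of 12 polymerase I subunits tested, 6 were lower and 4 higher with siMESH1-CDS (6 and 3 with the GC offset), and 5 lower and 2 higher with siMESH1-7002. POLR1D, shared with RNA polymerase III, rose by 1.09 and 0.51 (adjusted p = 0.000484 and 1.83e-07), and was 1.01 with siMESH1-CDS after the offset. POLR2E, shared by all nuclear polymerases, was -4.20 with siMESH1-CDS (adjusted p = 0.00107, and -1.76 with the offset) and 0.00 with siMESH1-7002 (adjusted p = 0.951). The initiation and termination list gave 2 lower and 3 higher of 8 with siMESH1-CDS (3 and 3 with the offset), and 1 lower and 1 higher with siMESH1-7002. TAF1D of the SL1 factor rose by 1.43 and 0.17 (adjusted p = 0.00178 and 0.0251), and was 0.60 with siMESH1-CDS after the offset. Its partner TAF1C turned with the offset: with siMESH1-CDS it was -1.64 without it (adjusted p = 0.00361) and 1.56 with it (adjusted p = 0.00453), and with siMESH1-7002 it was 0.15 (adjusted p = 0.124).

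Among 16 abundant nucleolar proteins, 5 were lower and 3 higher with siMESH1-CDS (7 and 3 with the GC offset) and 9 lower and 1 higher with siMESH1-7002. NOP2, a methyltransferase of ribosomal RNA, fell by 3.13 and 0.48 (adjusted p = 0.00899 and 1.64e-06), and PA2G4 by 0.50 and 0.26 (adjusted p = 0.0215 and 0.000332). With the offset these were -1.79 and -0.35 with siMESH1-CDS. DDX21 was 0.05 with siMESH1-CDS (adjusted p = 0.750) but -0.86 with the offset (adjusted p = 8.85e-05), and -0.27 with siMESH1-7002 (adjusted p = 0.000438).

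The MYC network list, of MYC with its partners and antagonists, had more higher than lower genes with siMESH1-7002: 7 of 11 tested genes were higher and 3 lower. With siMESH1-CDS 4 were higher and 7 lower, and with the GC offset 4 and 4. MXI1 and MXD1, which compete with MYC for its partner MAX, rose by 0.13 and 0.79 with siMESH1-7002 (adjusted p = 0.0281 and 1.04e-06). With siMESH1-CDS they were 1.62 and 0.76 (adjusted p = 0.000304 and 0.0202), and with the offset MXI1 was 0.95 while MXD1 was -0.03 and not called (adjusted p = 0.866). MLXIP was -2.37 and 0.51 (adjusted p = 0.00878 and 1.04e-07), and -0.37 with siMESH1-CDS after the offset.

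Of 11 metabolic MYC targets tested, 5 were lower and 4 higher with siMESH1-CDS (6 and 2 with the GC offset), and 6 lower and 0 higher with siMESH1-7002. CAD, which starts pyrimidine synthesis, fell by 3.00 and 0.41 (adjusted p = 0.0217 and 1.50e-05), and was -1.26 with siMESH1-CDS after the offset. LDHA was -0.04 and 0.07 (adjusted p = 0.6996 and 0.165), and with the offset it was -0.68 with siMESH1-CDS (adjusted p = 0.000371). The histone chaperone NAP1L1 was 1.28 and 0.05 (adjusted p = 0.00281 and 0.448), and 0.23 with siMESH1-CDS after the offset.

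**Figure D4:**
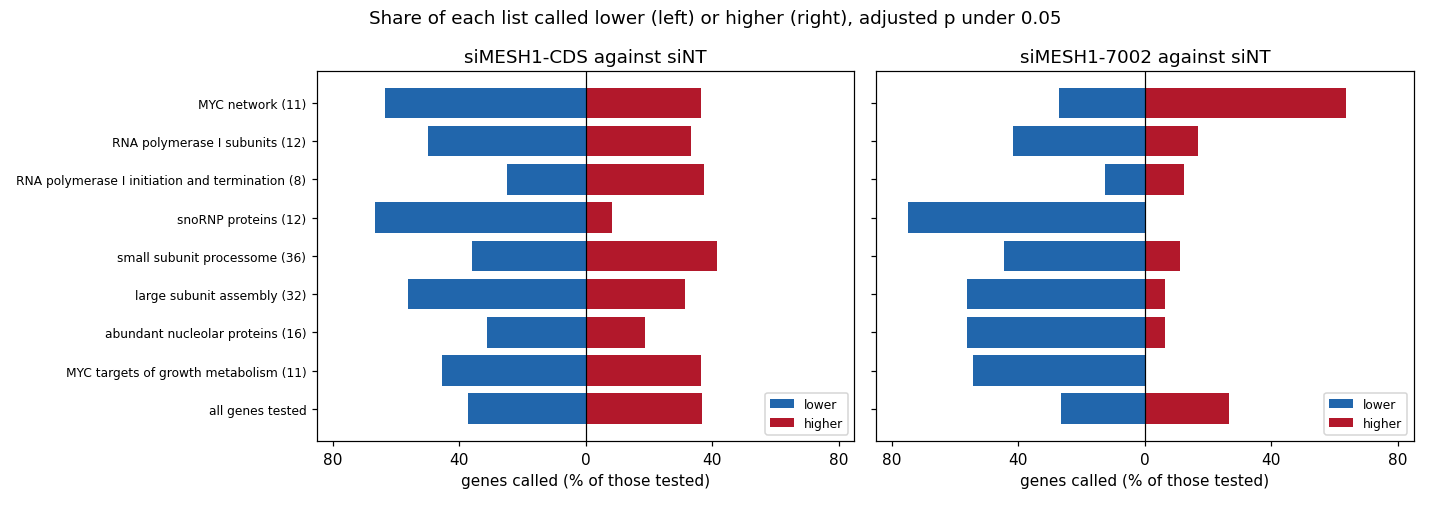
Share of each list's tested genes (number in brackets, %) called lower (left) or higher (right), with no GC offset. The snoRNP proteins reach 75% lower with siMESH1-7002, beside 26.7% of all genes tested. Under the 4 centrings of the offset they reach 33.3% to 75%, beside 23.2% to 30.5% of all genes.

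The changes with the 2 siRNAs were tested against each other in 1 model of all 12 libraries. Each siRNA was used in its own experiment, so a difference between the siRNAs cannot be told apart from one between the experiments. Of all genes, 69.7% differed, with a median difference of 0.24 (siMESH1-7002 minus siMESH1-CDS), and 8 of the 10 genes differed. POLR1A, UBTF, FBL, NOP56 and BOP1 were less negative with siMESH1-7002, and POLR1B, NCL and NPM1 were less positive or more negative. MYC and RRN3 did not pass the test, at 0.16 and 0.25. With the scaling inside each experiment, tried after seeing the data, the same 8 passed, beside 70.5% of all genes, and MYC and RRN3 were at 0.0068 and 0.10. After the GC offset 5 of the 10 passed the test, beside 8406 of 13677 genes: MYC (at -1.20), POLR1A, POLR1B, RRN3 and BOP1. Under each of the other centrings of the offset 8 of the 10 passed, with RRN3 among them, beside 8282 to 8931 of all genes.

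Promoters bear on the MYC list because CACGTG is the E-box that MYC and MAX bind. The letters CACGTG, which read the same on both strands, were searched in the 300 bases around the start of each gene (250 before and 50 after, RefSeq, GRCh38.p14). They occur in a promoter of 8.77% of 27305 genes. Promoters were found for 8 of the 10 genes, and 1 of the 8, FBL, held the letters. Of the 123 list genes found, 44 held them (35.8%). A pair of windows is shown with the letters in capitals, FBL at chr19:39846356-39846385 on the minus strand, and PES1, the BOP1 partner, at chr22:30591880-30591909 on the minus strand.
FBL promoter: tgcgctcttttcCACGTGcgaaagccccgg
PES1 promoter: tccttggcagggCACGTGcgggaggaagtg
Of the 44 genes with the letters, 22 were lower and 12 higher with siMESH1-CDS, and 23 were lower and 3 higher with siMESH1-7002. Of 76 tested genes without them, 34 were lower and 25 higher with siMESH1-CDS, and 33 were lower and 13 higher with siMESH1-7002. Both sets of counts are without the GC offset. Of all genes tested, 37.2% were lower and 36.9% higher with siMESH1-CDS, and 26.7% lower and 26.6% higher with siMESH1-7002. A difference between genes with and without the letters was not tested, nor was the part of GC content in it. The windows of FBL, a member, and PES1 were chosen with their values known, and both genes were lower with each siRNA before the GC offset. The absence of the letters in the other windows says only that these letters are not there.

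Of 9707 genes with a mean of at least 10 CPM, NFIX and SDC1 were among the 3 whose log2 differences from siNT were most like those of MYC over the 12 libraries (Pearson r = 0.97 for each). POLR1A and UBTF reached 0.75, NOP56 0.73 and FBL 0.67, while NPM1 was at -0.75. NCL was at 0.20, RRN3 at 0.17 and POLR1B at -0.28, and BOP1, below 10 CPM, was not ranked. These libraries fall into 2 experiments with different changes, so the values are descriptions without a test.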

How the data were processed

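Each library's deposited file gives raw counts per gene, unnormalized, which the authors made with HISAT2 and HTSeq on hg19 per the labels' processing notes (versions not given in the sources used here) from single-end 50-base reads. Rows that name no gene, 38.9% to 49.3% of the tally per library, were left out. The deposited DESeq2 tables, which hold the authors' fold changes and p-values, were not used. Libraries were grouped by their labels, and genes were fitted with edgeR 4.0.16 in R 4.3.3 (filterByExpr, TMM, glmQLFTest, Benjamini-Hochberg, threshold 0.05) in each experiment and in 1 model of 12 libraries for the difference, with TMM over 12 libraries or, as a check added later, inside each experiment. GC content came from GENCODE 29 (GRCh38, of 23710 symbols, 21257 matched by name and 1194 by an older symbol). The named genes are the 10, HDDC3, the 2 highest in siNT and the gene with the largest change shared by both siRNAs in each list, and the 3 most like MYC, of which 1 is not reported here. The 10 genes and the lists were chosen with earlier results of these data known. The GC offset is a lowess smooth (span 0.3) of log2 CPM on GC content. Its centring was not fixed in the plan, and 4 centrings were run with the values of the 10 genes seen: the smooth's own level, the smooth centred per library, TMM recomputed on adjusted counts, and TMM of the unadjusted counts. The third is given as the offset, because it split all genes most evenly (4309 higher and 4334 lower with siMESH1-CDS), and the others stand beside it. Steps were tested on simulated counts with less spread than experiment 1 showed (coefficient of biological variation 0.299). The GC offset was tested on a trend put into counts modelled on experiment 2, the same in each treated library. These tests therefore do not show how the fits perform on the siMESH1-CDS libraries.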

Additional observations from a re-analysis of the deposited data

Results flagged for a closer look

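The change of 8 of the 10 genes differed between the siRNAs, beside 69.7% of all genes (edgeR, difference as siMESH1-7002 minus siMESH1-CDS, adjusted p under 0.05). The differences in log2 fold change were 1.34 for POLR1A, -0.77 for POLR1B, 1.27 for UBTF, 2.87 for FBL, 1.77 for NOP56, -0.22 for NCL, -0.73 for NPM1 and 6.63 for BOP1. The median of all genes was 0.24, and BOP1 rests on 2 reads with siMESH1-CDS. With the GC offset the differences of POLR1A (0.74), POLR1B (-0.37) and BOP1 (3.44) stayed called. Those of UBTF (-0.25), FBL (0.92), NOP56 (0.06), NCL (-0.11) and NPM1 (-0.16) did not (adjusted p between 0.0761 and 0.497). These calls varied with the centring. Each siRNA was used in its own experiment, so siRNA and experiment cannot be told apart.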

How the results depend on the processing

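With siMESH1-7002 the 8 genes called lower kept their direction under all alternatives, and POLR1A, UBTF, FBL and NOP56 lost the call in 1 model of 12 libraries, where 4 of the 10 and 2582 of all genes were called. Of the 7235 genes called in experiment 2 alone, 2567 were among these. The wider spread of the siMESH1-CDS libraries enters that model. With the level of the smooth or the scaling of the unadjusted counts as GC centring, 5 were lower and 2 higher (RRN3 and NPM1). Of all genes, 23.9% and 23.2% were then lower, and 39.7% and 41.2% higher, in that order. Without siNT replicate 3 of experiment 2, 2 of the 10 were higher. With siMESH1-CDS, 3 were lower under each of these centrings, beside 27.1% and 19.5% of all genes. Under the same centrings 4 and 6 were higher, beside 40.8% and 49.7%. The centring per library gave 0 higher, beside 14.2% of all genes. The replicate block with the GC offset gave 0 higher too, with 7604 genes called in either direction. The difference between the siRNAs was called for 5 of the 10 with the GC offset, with or without the block, and for 8 under each of the other centrings. Leaving out each library in turn gave 4 to 6 lower with siMESH1-CDS, 7 to 8 lower and 0 to 2 higher with siMESH1-7002, and 7 to 9 that differed.

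Directions with siMESH1-CDS turned as follows, with the cause not tested. Under the GC offset the values were 0.93 for MYC, -0.019 for POLR1B, 0.10 for UBTF, -0.83 for RRN3 and -0.058 for NCL. With the level of the smooth, MYC was 1.13, UBTF 0.29 and RRN3 -0.64. With the smooth centred per library, MYC was 0.37, POLR1B -0.50, RRN3 -1.31, NCL -0.55 and NPM1 -0.28. With the scaling of the unadjusted counts, MYC was 1.44, UBTF 0.58, RRN3 -0.36 and NOP56 0.18. With the block and the GC offset, MYC was 0.84, POLR1B -0.0196, UBTF 0.092, RRN3 -0.83 and NCL -0.059. RRN3 and NCL were -0.23 and -0.082 with library size scaling, and -0.15 and -0.00549 with at least 10 counts in every library. RRN3 was -0.11 in 1 model, and -0.048 to 0.11 when a library was left out. The difference between the siRNAs turned for MYC (-1.20, -1.31, -0.41, -1.45, and -1.11 with the block), UBTF (-0.25, -0.36 and -0.48, and -0.24 with the block), NOP56 (-0.042 and -0.15 with the level and the unadjusted scaling), and, with the smooth centred per library, POLR1B (0.33), NCL (0.61) and NPM1 (0.57).

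Libraries share only a replicate number: deviations of same-numbered libraries correlated at -0.07, 0.41 and 0.28 in experiment 1 and at -0.07, 0.04 and -0.10 in experiment 2. With the replicate block MYC with siMESH1-CDS lost its call (adjusted p = 0.0886), as did the difference for NCL (adjusted p = 0.112), 5 genes were lower and 2 higher with siMESH1-CDS, 8 were lower with siMESH1-7002, and 7 differed. Counts limit BOP1 with siMESH1-CDS, which has 2 reads in 3 libraries.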

Other observations

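The row RNA45S5, for the 45S precursor of ribosomal RNA that polymerase I makes, was looked at after its values were seen, and poly(A)-selected libraries measure this RNA poorly. It had 1805, 2374 and 1984 CPM in siNT and 738, 174 and 1860 CPM with siMESH1-CDS, and the change was not called (log2 fold change -1.15 ± 0.76, SE, adjusted p = 0.209). In experiment 2 it had 2859, 2517 and 4438 CPM in siNT and 3733, 4144 and 3874 CPM with siMESH1-7002, which was not called either (0.26 ± 0.13, adjusted p = 0.108). Among the pseudogenes of RRN3, RRN3P1 was 1.56 with siMESH1-CDS (adjusted p = 0.00973) and RRN3P3 was -0.82 (adjusted p = 0.0178), beside 0.04 for RRN3, and with the GC offset they were 0.56 and 0.21 and not called (adjusted p = 0.174 and 0.238).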
